A study of Mus musculus with 3 samples.

Results

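The glucose, lactate and amino acid transporters described here are the plasma membrane and lysosomal carriers of 6 solute carrier (Slc) families, measured in 3 populations of mouse CD8 T cells. Members were all probe sets whose platform annotation gave a single symbol of the Slc1a, Slc2a, Slc3a, Slc7a, Slc16a or Slc38a family. The rule found 120 of 45101 probe sets, which stand for 57 of 18194 named genes. One further probe set, annotated to Slc1a2 and a second gene, was not counted.

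The 3 populations were CD8 T cells of tissue given as MLN (in the study, the mesenteric lymph node), with 1 array each. Their labels are CL4-TCR, then VILLIN-HA/CL4-TCR, then Villin-HA + CL4-TCR, and values given in threes follow this order. All of them carry the CL4 T cell receptor transgene, which makes CD8 T cells specific for hemagglutinin (HA) of influenza virus. By their labels, the latter pair add HA under the promoter of the villin gene, which is active in gut epithelium, and are called the HA arrays below. The series lists ordinary, activated and regulatory CD8 T cells, and the labels do not say which HA array is which. The sources used here give no strain, age, sex, time or number of animals per array. Each array was hybridised with biotin-labelled cRNA from 6 µg of total RNA.

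Resting T cells need little fuel, and activation is known to raise the import of glucose and amino acids. Glucose enters through carriers of the Slc2a family (GLUT proteins), and lactate leaves through proton-coupled carriers of the Slc16a family (MCT proteins). Large neutral amino acids cross by a pair of proteins, a transporting light chain of the Slc7a family and the heavy chain Slc3a2 (CD98) that brings it to the surface. Glutamine enters through Slc1a5 (ASCT2) and the Slc38a family (SNAT proteins), and cationic amino acids such as arginine through Slc7a1 (CAT1).

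Promoters of some members are shown first. E-boxes (the motif of Myc and related factors) and the element of Atf4 are known control sequences of such carriers. Atf4 is the factor of the amino acid shortage response. The set shown is not that of the members that differ between arrays. Slc16a1 passed 2-fold in no comparison below, and Slc7a11 lay below the overall median signal on all 3 arrays. The sequences are from RefSeq (GRCm38.p6), 250 bases up to the base before the annotated transcript start, 5′ to 3′ on the strand of the gene. Capitals mark a match to CACGTG (an E-box) or, on either strand, to TGATGNAA (the core of the Atf4 element). Slc7a1 is the only member counted below as higher on VILLIN-HA/CL4-TCR than on CL4-TCR. Its 2 entries are chr5:148399905-148400154 and chr5:148392816-148393065, both on the minus strand. The others are Slc16a1 at chr3:104638414-104638663 (plus), Slc38a7 at chr8:95853492-95853741 (minus) and Slc7a11 at chr3:50443614-50443863 (minus).
Slc7a1, first entry: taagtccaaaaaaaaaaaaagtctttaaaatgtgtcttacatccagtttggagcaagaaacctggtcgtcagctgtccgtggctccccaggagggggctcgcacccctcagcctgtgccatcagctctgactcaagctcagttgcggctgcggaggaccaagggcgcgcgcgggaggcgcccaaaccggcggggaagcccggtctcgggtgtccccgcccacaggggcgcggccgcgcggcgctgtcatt
Slc7a1, second entry: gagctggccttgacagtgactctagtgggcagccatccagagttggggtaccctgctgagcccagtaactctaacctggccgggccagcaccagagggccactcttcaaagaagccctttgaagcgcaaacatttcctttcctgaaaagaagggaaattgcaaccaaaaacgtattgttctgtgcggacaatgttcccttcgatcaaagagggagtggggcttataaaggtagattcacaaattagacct
Slc16a1: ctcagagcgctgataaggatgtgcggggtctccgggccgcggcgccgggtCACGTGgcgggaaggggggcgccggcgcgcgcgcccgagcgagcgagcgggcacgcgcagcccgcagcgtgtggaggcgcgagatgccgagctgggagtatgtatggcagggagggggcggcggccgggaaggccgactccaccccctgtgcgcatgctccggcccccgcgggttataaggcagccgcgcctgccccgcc
Slc38a7: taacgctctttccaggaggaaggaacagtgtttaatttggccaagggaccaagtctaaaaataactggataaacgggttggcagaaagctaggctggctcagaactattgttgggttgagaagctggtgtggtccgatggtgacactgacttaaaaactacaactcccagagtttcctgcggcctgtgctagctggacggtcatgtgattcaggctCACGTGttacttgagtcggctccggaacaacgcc
Slc7a11: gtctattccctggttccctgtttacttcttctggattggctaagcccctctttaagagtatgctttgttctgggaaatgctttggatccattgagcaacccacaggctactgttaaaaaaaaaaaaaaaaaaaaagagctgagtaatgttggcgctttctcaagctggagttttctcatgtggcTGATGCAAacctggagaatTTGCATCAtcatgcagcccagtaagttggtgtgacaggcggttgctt

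No match to either motif lay in the 2 Slc7a1 windows. The entries of Slc2a1, Slc2a8, Slc16a3, Slc16a4, Slc16a10 and Slc16a11, which passed 2-fold in a comparison below, also held none and are not printed. The E-box began 200 bases before the start in Slc16a1 and 34 bases before it in Slc38a7. The cystine carrier Slc7a11 held the Atf4 core 2 times, beginning 66 and 47 bases before the start. Promoter entries were found for 42 of the 57 members, 52 entries in all, and 7 of these 52 held CACGTG, against 6.02% of the 32851 entries of the table. TGATGNAA was in 3 of the 52, those of Slc7a11 and of Slc7a7, against 3.45% of all. A match describes the sequence and is not a measured binding site.

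CD8 T cell markers were high on each array: 8 of the 8 found CD8 T cell markers lay above the overall median signal of 31.7 on all 3 arrays. Of 3 CD4 T cell genes, Cd4 (9.1, 5.9 and 9.4) and Cd40lg stayed below it, and Zbtb7b had 60.9, 18.2 and 24.9. Summed over the 4 B cell markers found, the signal was 232, 411 and 320. Of these, Ms4a1 had 55.8, 147 and 52.5 and Cd79b had 110.5, 199 and 233. RNA of other kinds and RNA quality differed between the arrays. Summed over 9 macrophage and monocyte markers the signal was 280.5, 1602 and 867, and over 10 skeletal muscle genes it was 215, 235 and 6017. It was 117, 122 and 1789 for 7 neutrophil markers, 99.2, 84.1 and 1047 for 7 genes of stroma and endothelium, and 20, 23.9 and 560.5 for 3 of adipocytes. Most of the macrophage and monocyte sum came from Lyz2 (84.5, 817 and 312) and Csf1r (40.9, 384 and 125). Of these 9 markers, 3 were at least 2-fold higher on VILLIN-HA/CL4-TCR than on Villin-HA + CL4-TCR. The 2 that were lower there were Cd68 (39.5, 49.1 and 106) and Fcgr3 (24.8, 11.1 and 82.8). The ratio of the 3′ to the 5′ Gapdh control probe set was 18.4, 46.2 and 3.35. Xist, an RNA of female cells, was at 5442.5, 2.5 and 1339, and the Y-linked Eif2s3y at 13.4, 1496 and 747. The part of these differences in the results below was not tested. In RNA of a whole population, fewer cells of a type cannot be told apart from less RNA per cell. The values are MAS5 signals, and those below the overall median of 31.7 were raised to it as a floor. A gene is represented by its probe set of highest mean signal, and a difference of 2-fold or more is called higher or lower. Where the lower array was at the floor, the fold is written as at least. With 1 array per group no test was possible, and each difference is between arrays. The only measure of error is the SD of log2 differences between probe sets of the same gene, which was 0.47 over the 10 members that allow it for the VILLIN-HA/CL4-TCR array against CL4-TCR. It was 0.64 over 10 members for the other HA array, and 0.58 over 9 members between the HA arrays. This SD is between readings of the same arrays and does not cover differences between animals or cell sorts. Levels of different probe sets are not comparable.

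Of the 57 members, 19 lay above the overall median signal on all 3 arrays (33.3%, against 49.5% of all 18194 named genes), 15 on some arrays and 23 on none. In the Slc1a family of glutamate and neutral amino acid carriers, 2 of 7 members were above it on all 3, Slc1a4 and Slc1a5. In the Slc2a family these were 3 of 11, Slc2a1, Slc2a3 and Slc2a9, and in the Slc3a family of heavy chains 1 of 2, Slc3a2. Of the 15 Slc7a members, 3 were, Slc7a1, Slc7a5 and Slc7a6. Of the 13 Slc16a members, 4 were, Slc16a1, Slc16a6, Slc16a10 and Slc16a11. The Slc38a family had the highest share, 6 of 9: Slc38a1, Slc38a2, Slc38a6, Slc38a7, Slc38a9 and Slc38a10. Counted by probe set, 37 of 120 members (30.8%) were above the overall median on all 3 arrays, against 40.4% of all probe sets.

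Slc1a7, Slc2a4, Slc2a6, Slc2a8, Slc2a10, Slc3a1, Slc7a4, Slc7a8, Slc7a10, Slc16a3, Slc16a4, Slc16a5, Slc16a13, Slc16a14 and Slc38a3 were above the overall median on 1 or 2 arrays. The 23 members below it throughout include the glutamate carriers Slc1a1, Slc1a2, Slc1a3 and Slc1a6, the liver glucose carrier Slc2a2, the fructose carrier Slc2a5, Slc2a12 and Slc2a13. From the Slc7a family they are Slc7a2, a cationic amino acid carrier of macrophages, Slc7a3, Slc7a7, Slc7a9, Slc7a11, Slc7a12, Slc7a13, Slc7a14 and Slc7a15. The others are Slc16a7, Slc16a8, Slc16a9, Slc16a12, Slc38a4 and Slc38a5. Slc7a11 (xCT) had signals of 1.6, 5.9 and 18.8. With detection calls not used here, a signal below the overall median is not shown to be absence of the transcript.

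**Figure D1:**
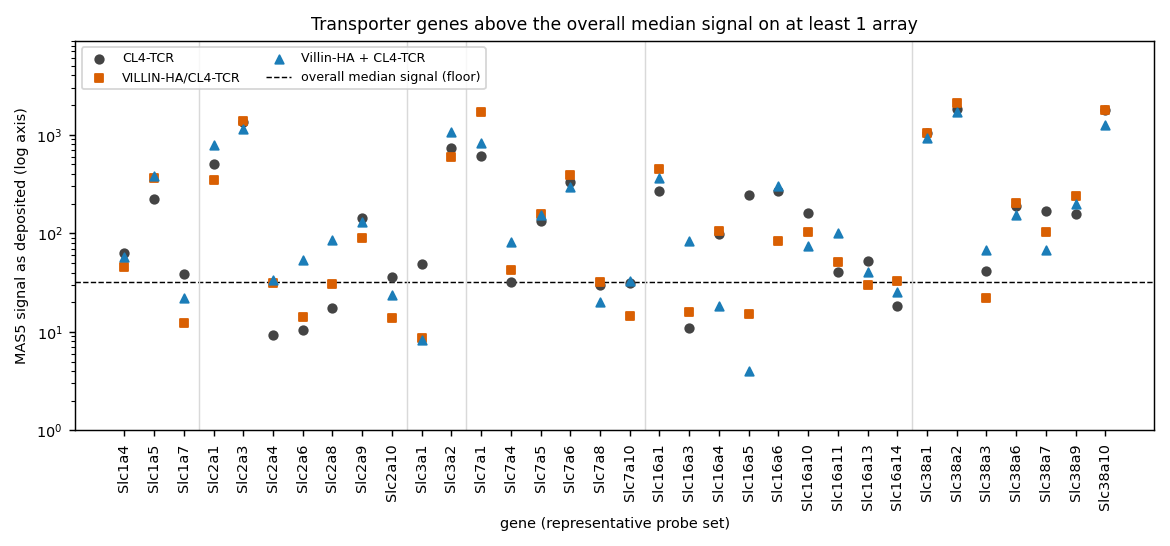
Deposited MAS5 signal (log axis) of the representative probe set of the 34 transporter genes above the overall median signal of 31.7 (dashed line) on at least 1 array, ordered by family, with 1 symbol per array. Heights compare arrays within a gene, not genes. The symbols of Slc38a2 lie close together (1819, 2091 and 1718), while Slc16a5 has 1 symbol high above the line (247) and 2 below it.

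The first comparison, VILLIN-HA/CL4-TCR minus CL4-TCR, sets T cells from mice that also carry gut HA beside those from mice without it. Few transporters stood apart. Slc7a1, the cationic amino acid carrier, was 2.79-fold higher on the former array. Slc16a5 and Slc16a6, of the monocarboxylate family, were at least 7.79-fold and 3.20-fold lower. Of the 29 members measured, meaning above the floor on either array, 1 was higher, beside 7.43% of all 11260 measured genes, and 2 were lower, beside 6.63%. That is 10.3% of members called in either direction, near the background of 14.1%. By probe set, 3 of 53 measured were higher and 3 lower, beside 6.47% and 6.89% of all named probe sets, or 13.4% in all. The median log2 difference of the measured members was 0.01, that of all measured genes -0.04.

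The second comparison, Villin-HA + CL4-TCR minus CL4-TCR, had 4 members higher and 4 lower of 32 measured. The background of all 12196 measured genes was 11.9% higher and 9.53% lower, so that 25.0% of members stand beside 21.4% of all genes. By probe set, 5 of 58 measured were higher and 7 lower, beside 11.4% and 10.4%, or 21.8% in all. Higher were Slc2a8 (at least 2.69-fold), Slc16a3 (at least 2.61-fold), Slc7a4 (at least 2.56-fold) and Slc16a11 (2.49-fold). Lower were Slc16a5 (at least 7.79-fold), Slc16a4 (at least 3.14-fold), Slc38a7 (2.47-fold) and Slc16a10 (2.18-fold). None of the 4 higher genes could reach 2-fold with the floor at the 65th percentile of all values (68.6). Their signals on Villin-HA + CL4-TCR, from 81.0 to 100.9, lay less than 2-fold above that floor. The members had a median log2 difference of -0.02 and all genes one of 0.06. Both of these comparisons use the same CL4-TCR array, so their likeness in single genes is not independent.

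Between the HA arrays, 2 of 30 measured members were higher on VILLIN-HA/CL4-TCR, Slc16a4 (at least 3.30-fold) and Slc7a1 (2.07-fold), against 6.14% of 12081 genes. Lower there were 5: Slc16a6 (3.63-fold), Slc2a8 (at least 2.69-fold), Slc16a3 (at least 2.61-fold), Slc2a1 (2.26-fold) and Slc38a3 (at least 2.16-fold), against 8.95% of all genes, and the 23.3% of members called stand beside 15.1%. By probe set, 6 of 53 were higher and 8 lower, beside 6.49% and 9.3%, or 15.8% in all. The scaling of the arrays bears on this split. When the arrays were scaled to equal medians, which moved the median of all genes by -0.19 in the second comparison and by 0.24 here (log2), Slc2a1 and Slc38a3 fell short of 2-fold and 2 members were higher and 3 lower. By quantile normalization 1 was higher (Slc16a4, while Slc7a1 had 0.99) and 5 were lower. Over all genes, 40.7% of the calls between the HA arrays were higher as deposited and 67.1% with equal medians, and in the second comparison these shares were 55.6% and 38.3%.

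**Figure D2:**
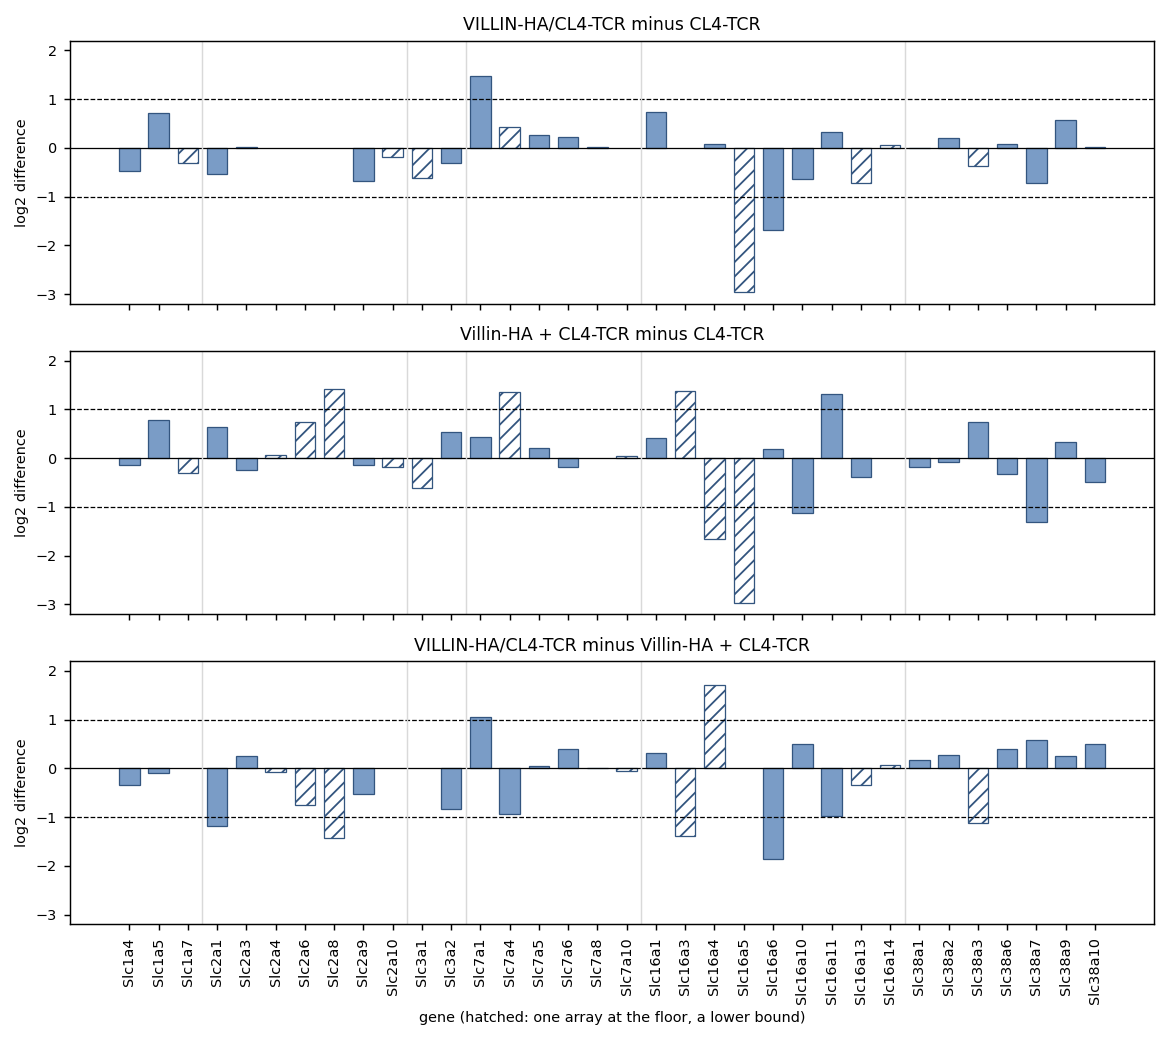
Log2 difference of each transporter gene in the 3 comparisons, for the 34 genes above the floor on at least 1 array, with dashed lines at 2-fold. Hatched bars have an array at the floor and are lower bounds, and genes with both arrays at the floor have no bar. Slc7a1 (1.48) stands above the upper line in the top panel, and Slc16a5 (at least 2.96 in size) far below the lower line in the top and middle panels.

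Of the glucose carriers (Slc2a), the insulin-independent GLUT1 gene Slc2a1 separated the HA arrays. Its signal was 509 on CL4-TCR, 351 on VILLIN-HA/CL4-TCR and 795 on the other HA array. The CL4-TCR array thus lay between the others, with log2 differences of -0.54 and 0.64 from it, both short of 2-fold. The other 2 probe sets of Slc2a1 had the same order: 247, 163 and 374 for 1426599_a_at, and 120.4, 71.7 and 221.5 for 1426600_at. Over all 3 probe sets the log2 difference between the HA arrays ran from -1.63 to -1.18. With equal array medians the representative had -0.91, and the order of the arrays was kept.

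Slc2a3, the high-affinity GLUT3 gene of lymphocytes and neurons, differed little. Its signal was 1358.5, 1377.5 and 1147, and its second probe set had 463, 518 and 418. The log2 differences of these probe sets lay between -0.24 and 0.31 in the 3 comparisons, and the other 2 were below the floor on all arrays or, for 1427770_a_at, above it only on Villin-HA + CL4-TCR (38.9). Slc2a8, a GLUT protein of internal membranes, had 17.4, 30.5 and 85.3, and the lysosomal carrier gene Slc2a6 had 10.4, 14.3 and 53.3. Both were thus above the floor on Villin-HA + CL4-TCR alone. Slc2a9, which carries urate, had 144, 90.5 and 131. Slc2a4, the insulin-responsive carrier of muscle and fat, had 9.2, 31.1 and 33.4, so that Villin-HA + CL4-TCR was just above the floor. On that array 10 of 10 muscle genes and 2 of 3 measured adipocyte markers were higher than on CL4-TCR, beside 11.9% of all genes. On VILLIN-HA/CL4-TCR, where Slc2a4 was just below the floor, 0 of 3 measured muscle genes were higher, beside 7.43%, and no adipocyte marker was above the floor. The part of such RNA in the Slc2a4 values was not tested. Slc2a10 was above the floor only on the CL4-TCR array, at 36.0.

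Of the monocarboxylate carriers (Slc16a), the main lactate carrier of lymphocytes, Slc16a1 (MCT1), was present throughout at 269, 448 and 361. It was highest on the VILLIN-HA/CL4-TCR array, with a log2 difference of 0.74 from CL4-TCR, and did not reach 2-fold on either HA array. Its second probe set, 1446274_at, was above the floor only on Villin-HA + CL4-TCR (40.5). Slc16a3 (MCT4), the lactate exporter of strongly glycolytic cells, had 11.0, 16 and 82.8, so its only value above the floor was that of Villin-HA + CL4-TCR. This gene is also known from muscle and activated myeloid cells. On that array 10 of 10 skeletal muscle, 5 of 6 measured neutrophil and 5 of 7 measured macrophage and monocyte markers were higher than on CL4-TCR, beside 11.9% of all genes. On VILLIN-HA/CL4-TCR, where Slc16a3 was below the floor, 4 of 8 measured macrophage and monocyte markers were higher, beside 7.43%. The part of such RNA in the Slc16a3 values was not tested.

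The other Slc16a members went both ways. Slc16a5 (MCT6) had 247 on the CL4-TCR array and 15.3 and 4.0 on the HA arrays, by probe set 1434473_at. Its second probe set stayed below the floor on all 3 arrays (3.1, 13.0 and 12.4), and with both averaged the log2 difference from CL4-TCR was -1.48 for each HA array. Slc16a6 (MCT7), known for ketone body export in liver, had 267, 83.4 and 303, so that VILLIN-HA/CL4-TCR alone was low. Slc16a4 had 99.4, 105 and 18.5, with Villin-HA + CL4-TCR below the floor, while its second probe set, near the floor, had 32.9, 24.7 and 31.2. Averaged over both, its difference in the second comparison was -0.85.

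Slc16a10 (TAT1), a carrier of aromatic amino acids, was highest on the CL4-TCR array in the representative probe set, at 161, 104 and 73.6. Its second probe set had 52.5, 46.6 and 8.3, in the same order. Over all 4 of its probe sets, with low values at the floor, the mean log2 difference in the second comparison was -0.49. Slc16a11 had 40.6, 51.0 and 101. Its neighbour on chromosome 11, Slc16a13, had 52.2, 30.2 and 40.2 and was highest on the CL4-TCR array, so this adjacent pair did not share an order. Slc16a14 was above the floor only on VILLIN-HA/CL4-TCR, at 33.2.

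Of the heavy chains (Slc3a), Slc3a2 (CD98) had signals of 735, 596 and 1063. The Villin-HA + CL4-TCR array was the highest, and the log2 differences of -0.30, 0.53 and -0.84 in the 3 comparisons stayed short of 2-fold. Slc3a1, the partner of renal cystine transport, had 48.6 on CL4-TCR and 8.7 and 8.3 on the HA arrays. Each of these genes has 1 probe set, so no second reading was available.

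Among the Slc7a light chains, neither leucine carrier passed 2-fold by its representative. Slc7a5 (LAT1), which pairs with Slc3a2 and is induced in activated T cells, had 132, 159 and 153.5 by its single probe set. Its log2 differences of 0.26 and 0.22 from CL4-TCR are smaller than the SD between probe sets. Slc7a6, a light chain that exchanges cationic for neutral amino acids, had 331, 386 and 294, and its second probe set had 232, 435.5 and 207. Both were highest on the VILLIN-HA/CL4-TCR array, by 0.22 and 0.91 from CL4-TCR on the log2 scale, and between the HA arrays by 0.39 and, past 2-fold, 1.08. Slc7a8 (LAT2) had 29.7, 32.0 and 20.1 and Slc7a10 had 31.0, 14.4 and 32.7, so that each was just above the floor of 31.7 on at most 1 array.

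Slc7a1, the carrier of arginine and lysine, had signals of 605 on CL4-TCR, 1687 on VILLIN-HA/CL4-TCR and 816 on the other HA array by probe set 1454991_at. Its second probe set, 1454992_at, had 143, 433 and 350. Both were highest on VILLIN-HA/CL4-TCR, with log2 differences of 1.48 and 1.60 from CL4-TCR. On Villin-HA + CL4-TCR the same probe sets had 0.43 and 1.29, so only the second passed 2-fold there. The third, 1421533_at, had 50.8, 18.9 and 5.6, above the floor on CL4-TCR alone, so that here CL4-TCR was the highest. With all 3 averaged on the log2 scale the difference of VILLIN-HA/CL4-TCR from CL4-TCR was 0.80 and that between the HA arrays 0.45, both short of 2-fold. Slc7a4, a relative of the cationic carriers for which transport is not established, had 31.7, 42.6 and 81.0 by its representative probe set, and its other 2 probe sets were below the floor on all arrays.

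**Figure D3:**
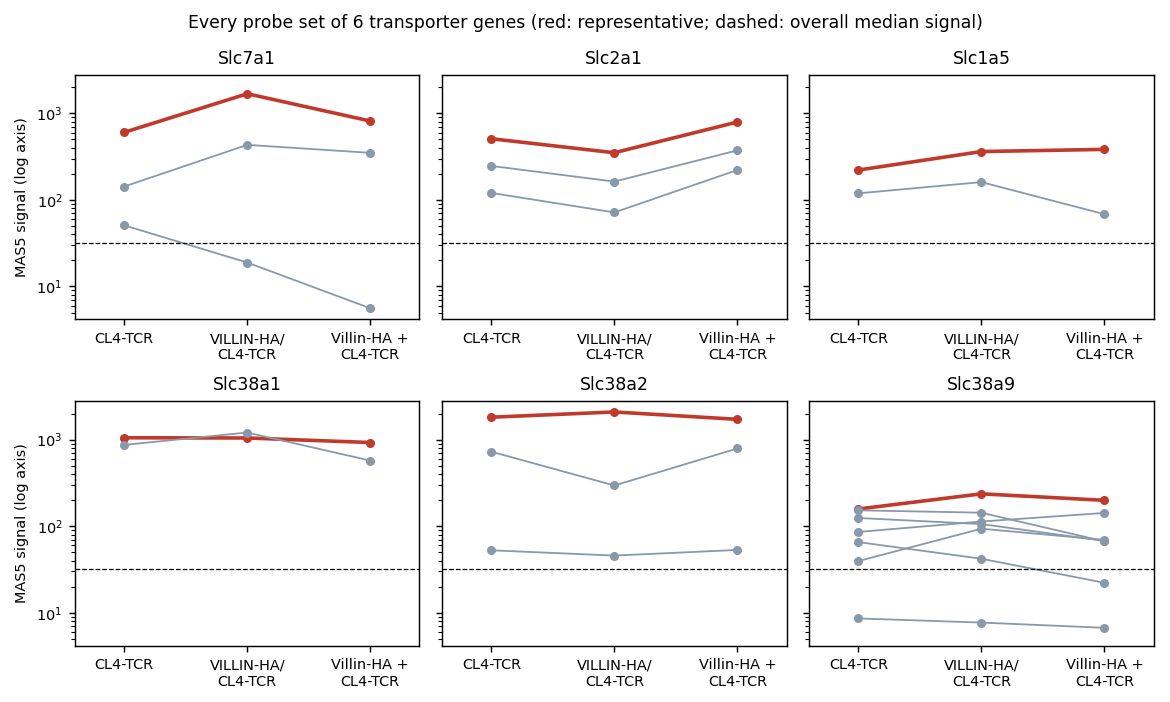
MAS5 signal (log axis) of every probe set of 6 transporter genes on the 3 arrays, with lines joining the values of 1 probe set, the representative in red and the overall median signal dashed. The 3 probe sets of Slc2a1 share 1 order of arrays, while those of Slc38a2 and Slc38a9 do not.

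Of the neutral amino acid exchangers of the Slc1a family, Slc1a5 (ASCT2), a main route of glutamine into T cells, had 221.5, 362 and 384. Both HA arrays lay above CL4-TCR, by 0.71 and 0.79 on the log2 scale and short of 2-fold. Its second probe set, 1440379_at, had 119, 161 and 68.4, so that it gave the same direction for VILLIN-HA/CL4-TCR and the opposite one (-0.80) for Villin-HA + CL4-TCR. Slc1a4 (ASCT1), a carrier of serine and alanine, had 63.6, 45.6 and 57.6. Slc1a7 was above the floor only on CL4-TCR, at 39.1.

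The Slc38a family of sodium-coupled glutamine carriers had no called member in the first comparison by the representatives, while other probe sets differed. Slc38a2 (SNAT2), which cells induce when amino acids run short, had 1819, 2091 and 1718. Slc38a1 (SNAT1) had 1053, 1046.5 and 927, and its second probe set had 871, 1209 and 573.5, a log2 difference of 1.08 between the HA arrays where the representative had 0.17. These genes are neighbours on chromosome 15. The probe sets of Slc38a2 disagreed: 1429593_at had 727, 296 and 792, low on the VILLIN-HA/CL4-TCR array, with log2 differences of -1.30 from CL4-TCR and -1.42 between the HA arrays where the representative had 0.20 and 0.28.

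Slc38a7, which exports glutamine from lysosomes, was the 1 family member counted in the second comparison, at 168, 102 and 67.9. It was highest on CL4-TCR and lowest on Villin-HA + CL4-TCR. Slc38a9, the lysosomal arginine sensor that feeds mTORC1, had 158, 237 and 199, and its 6 measured probe sets ran from -0.64 to 1.24 in the first comparison. Slc38a10 had 1764, 1781 and 1259, with its 6 measured probe sets from -1.29 to 0.75 in the second comparison, and Slc38a6 had 190, 201 and 152. Slc38a3 (SNAT3) had 41.0, 22.1 and 68.4, the second of these below the floor, and averaged over both probe sets the difference between the HA arrays was -0.55. In the first comparison 10 members had at least 2 probe sets with measured values on each array. In 6 they all went in 1 direction, and the 4 others were Slc38a1, Slc38a2, Slc38a9 and Slc38a10. In the second comparison 5 of 10 did, and between the HA arrays 5 of 9.

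Around the carriers, a list of 54 partners, regulators and users of their cargo was set beside them, of which 51 were found. The list was chosen with earlier results of these data known, so its counts and medians are not independent of that choice. In the first comparison 7 of 50 measured were higher than on CL4-TCR and 2 lower, beside the 7.43% and 6.63% of all genes. In the second these were 15 and 5 of 48, beside 11.9% and 9.53%. The median log2 differences were 0.13 and 0.40, against -0.04 and 0.06 over all genes. Between the HA arrays 4 of 51 were higher on VILLIN-HA/CL4-TCR and 5 lower, beside 6.14% and 8.95% of all genes.

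Enzymes that make serine, glycine and asparagine were among the higher genes. Of 6 serine and glycine genes, 3 were higher on each HA array than on CL4-TCR and none lower, beside 7.43% and 11.9% of all genes higher in the first and second comparison. Phgdh, the first enzyme of serine synthesis, was not among them, at 1749, 2000.4 and 2088, with probe sets from -0.43 to 0.74 in the first comparison and from 0.26 to 1.73 in the second. Psat1, of serine synthesis, had 393, 1426 and 1090. Shmt1, which turns serine into glycine, had 88.4, 426 and 235. Mthfd2, of mitochondrial folate metabolism, had 282, 569 and 486 and was counted in the first comparison only (2.01-fold), where its second probe set had a log2 difference of 0.50. Psph, the last enzyme of serine synthesis, had 232, 382 and 509 and was counted in the second only (2.19-fold). Shmt2, the mitochondrial counterpart of Shmt1, was 2.03-fold higher on VILLIN-HA/CL4-TCR than on Villin-HA + CL4-TCR by its representative, and a second reading of the gene had a log2 difference of -0.12. Asns, which makes asparagine and is a target of Atf4, had 29.3, 116 and 295.5, at least 3.67-fold and at least 9.32-fold higher, and Atf4 itself had 1007, 1110 and 1087 by its representative. The probe sets of Atf4 disagreed, from -0.71 to 0.14 in the first comparison, from 0.11 to 1.15 in the second and from -1.86 to 0.03 between the HA arrays. Trib3, Chac1 and Atf3, further genes of that response, were near or below the floor, at no more than 35.5.

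Of the other enzymes, Hk2, the hexokinase that traps imported glucose, had 75.0, 302 and 442, and Ldha, which makes lactate, had 3251, 4539 and 6279, with 0.95 as its larger log2 difference. Got1 and Got2, which move nitrogen from glutamate to aspartate, were 3.09-fold and 2.30-fold higher on Villin-HA + CL4-TCR than on CL4-TCR. The probe sets of Got2 ran from -0.31 to 1.44 in that comparison.

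Of the regulators, Txnip, which removes glucose carriers from the surface and is itself induced by glucose, had 2226, 659 and 1372, 3.38-fold lower on VILLIN-HA/CL4-TCR than on CL4-TCR. In the second comparison its probe sets disagreed, with -0.70 and 0.69. Its relative Arrdc4 had 71.0, 110 and 235, and its second probe set differed by 0.20 (log2) in the second comparison. Bsg, the chaperone that takes Slc16a1 and Slc16a3 to the membrane, had 64.1, 49.6 and 171, which is 2.67-fold higher on Villin-HA + CL4-TCR than on CL4-TCR and 3.46-fold lower on VILLIN-HA/CL4-TCR than there. Myc, the factor that drives transporter genes in activated T cells, had 502, 695 and 458, with no difference of 2-fold. Hif1a, the oxygen-regulated factor that raises glycolytic genes, had 1726, 2978 and 5055.

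The nutrient sensing genes Sesn1 and Sesn3 were lower on Villin-HA + CL4-TCR, at 2084.5, 2305 and 941 and at 1588, 2187 and 659, and so was Ddit4, an inhibitor of mTORC1, at 1165, 1183.5 and 581. Sesn2, a leucine sensor, had 28.8, 117 and 83.7, the first below the floor, so at least 3.70-fold and at least 2.64-fold higher. Its second probe set had a log2 difference of 0.29 in the first comparison. Rraga, a GTPase that recruits mTORC1 to lysosomes, was 2.42-fold higher on Villin-HA + CL4-TCR than on CL4-TCR, and its relative Rragd at least 2.25-fold lower. Among the other carriers of the list, Slc36a4 had 72.6, 186 and 153. The glycine carrier Slc6a9 had 25.8, 43.8 and 65.5, the first below the floor. The leucine carrier gene Slc43a2 had 816.5, 408 and 361, 2.00-fold and 2.26-fold lower on the HA arrays, while another of its probe sets had log2 differences of 0.56 and 0.21. Slc43a3, at 71.5, 127 and 156, is known to carry purine bases and not amino acids.

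**Figure D4:**
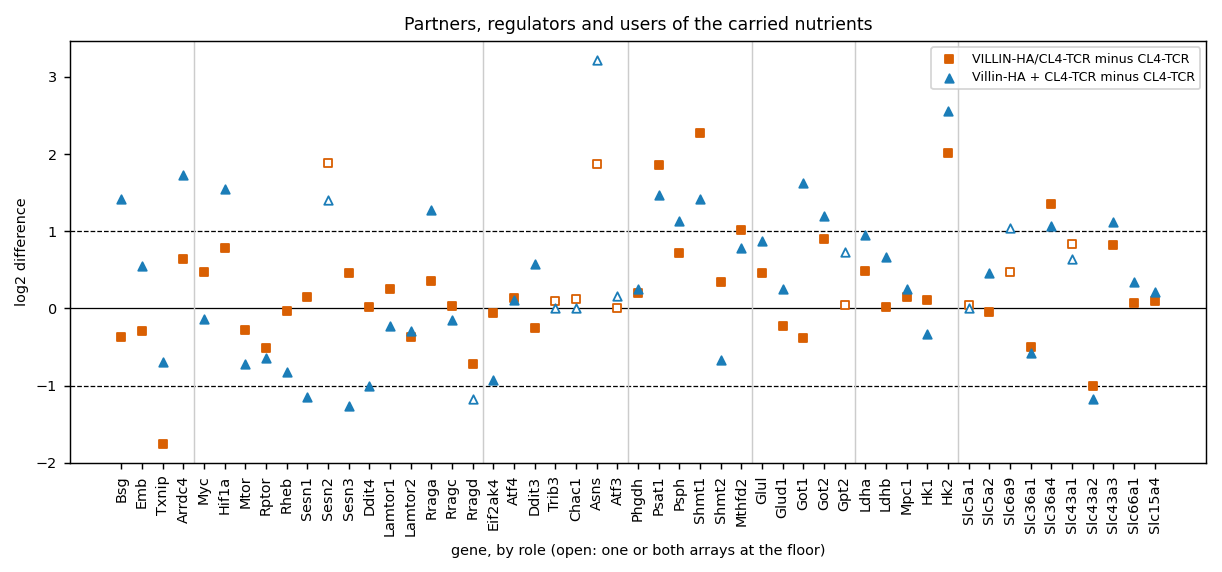
Log2 difference from the CL4-TCR array of the 51 partners, regulators and users of the carried nutrients on VILLIN-HA/CL4-TCR (squares) and Villin-HA + CL4-TCR (triangles), grouped by role, with dashed lines at 2-fold. Open symbols have 1 or both arrays at the floor. Hk2 (2.01 and 2.56) and Asns (at least 1.88 and at least 3.22) stand above the upper line on both arrays, and Txnip (-1.76) is below the lower line on VILLIN-HA/CL4-TCR.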

How the data were processed

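The deposited values are intensity values, MAS5 signals on a linear scale, per the submitters' processing notes, and no version is named there. MAS5 scales each array, and the 2% trimmed mean over 45101 probe sets was 150 on each array as deposited, so a common shift of most transcripts would not show. The sources used here give no background settings. Of the probe sets, 34958 had 1 symbol, 932 several and 9211 none. Symbols were updated through Entrez identifiers to the GRCm38.p6 RefSeq table, which held 34754 of the 34958. Each gene was represented by its probe set of highest mean signal, values were floored at the overall median (31.7), and log2 differences of at least 1 in size were counted, in python 3.11.15 with pandas 2.3.3. The calls were checked on simulated data, with changes larger than 2-fold in genes far above the floor and with little noise. That check did not cover changed genes near the floor or the spread between probe sets. Named in depth were 12 transporters picked for their known role, every member counted in any comparison and the member of highest mean signal per family. From the list of partners, counted members and Myc, Txnip and Bsg were to be named, and Ldha, Atf4, Trib3, Chac1, Atf3 and others outside this rule were added after their values were seen. The members, lists and promoter motifs were chosen with earlier results of these data known. Precision is limited by 1 array per group. Alternatives were other floors, folds, scalings and probe set choices.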

Additional observations from a re-analysis of the deposited data

Results flagged for a closer look

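Slc2a1 was singled out because its 2 differences from the CL4-TCR array point opposite ways, each by more than 0.5 on the log2 scale. As deposited, they were -0.54 for VILLIN-HA/CL4-TCR and 0.64 for the other HA array. With the arrays scaled to equal medians both kept their sign but were smaller than 0.5 in size, so the flag depends on the scaling. All 3 of its probe sets gave this order, and with 1 array per group the difference between these effects was not tested.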

How the results depend on the processing

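No paired analysis was possible because each group holds 1 array and the labels give no replicate numbers. Leaving out a replicate was not possible either. The median log2 difference of the measured transporters stayed within -0.09 to 0.07 for the first comparison (VILLIN-HA/CL4-TCR minus CL4-TCR), -0.14 to 0.18 in the second, which has Villin-HA + CL4-TCR instead, and -0.20 to 0.21 between the HA arrays, over all settings run. Members above the overall median on all 3 arrays numbered 19, and 16 to 21 with other scalings and probe set choices. Above the 65th percentile of all values there were 16 and above the 35th 26.

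Of 81 values recomputed for counts and medians, 23 moved, and the cause was not tested beyond what each setting does by construction. All 23 were counts of members past the fold, which changed by over 1.5 times. None of the medians or of the counts above the overall median was marked as moved, and the medians were not judged by a ratio. Among the counts past the fold alone, the share that moved is therefore larger than 23 of 81. In VILLIN-HA/CL4-TCR minus CL4-TCR, the count higher (1) became 3 at a fold of 1.5, 0 at a fold of 3, 2 without a floor and 0 with the mean over probe sets. The count lower (2) became 7 at a fold of 1.5, 5 with the floor at the 35th percentile and 6 without a floor. In Villin-HA + CL4-TCR minus CL4-TCR, the count higher (4) became 8 at a fold of 1.5, 0 at a fold of 3, 0 with the floor at the 65th percentile and 8 without a floor. The count lower (4) became 2 at a fold of 3 and 2 with the mean over probe sets. Between the HA arrays, the count higher (2) became 1 at a fold of 3, 1 with the floor at the 65th percentile, 4 without a floor, 1 by quantile normalization and 0 with the mean over probe sets. The count lower (5) became 9 at a fold of 1.5, 1 at a fold of 3, 2 with the floor at the 65th percentile, 8 without a floor and 3 with arrays scaled to the same median.

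Of 388 recomputed log2 differences of single named transporters, 357 moved by less than the SD between probe sets and 31 by more. A gene above every floor used keeps its value when the floor moves. So does one whose representative is not an _s_at, _x_at or _a_at probe set when those are left out. Part of the 357 could therefore not move. No difference of 2-fold changed sign in these settings, which the other floors and the setting without a floor could not have brought about. Slc2a8, Slc16a3 and Slc7a4 have only floor bounds on the CL4-TCR array, and with the floor at the 65th percentile their log2 differences for Villin-HA + CL4-TCR were 0.31, 0.27 and 0.24, while that of Slc16a11 was 0.56.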
